A study of Mus musculus with 45 samples.

Results

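The insulin-like growth factor (IGF) system was followed through 8 genes, namely the ligand gene Igf1, the receptor gene Igf1r and 6 genes for IGF-binding proteins, Igfbp2, Igfbp3, Igfbp4, Igfbp5, Igfbp6 and Igfbp7. They were taken by name from 35675 genes, of which 17325 passed the filter on low counts and were tested. All 8 passed. The estimated counts of each gene's transcripts were summed, and the genes were described in 45 mouse RNA-seq libraries, 3 in each of 15 groups.

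All groups carried the genotype Tg:Pax7-nGFP/C57BL6;DBA2, a transgene that reports Pax7 expression by nuclear green fluorescence. The starting cells were untreated mouse embryonic fibroblasts (MEFs). MEFs with a doxycycline-inducible MyoD, the myogenic transcription factor, were given doxycycline (Dox) for 2, 4, 6, 8 or 10 days, either alone ("MyoD alone") or with F/R/C, small molecules that the labels do not spell out. The labels call the first series myotubes and the second muscle fibers and progenitor cells, so each library of the second series mixes cell states. Libraries of the first series may be mixed too, which the labels do not say. The reference groups were bulk induced myogenic progenitor cells (iMPCs), kept in F/R/C medium after 13 days of Dox+F/R/C, iMPCs sorted for the Pax7 reporter, untreated bulk primary myoblasts of skeletal muscle, and myoblasts sorted for the reporter. The labels name no separate cultures or animals for the replicates, so p-values measure the spread between these libraries, which may be technical. In bulk libraries a smaller number of cells of one kind and less RNA in each cell cannot be told apart.

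IGF1 and IGF2 are secreted ligands that bind the tyrosine kinase IGF1R and signal through IRS adaptors, PI3 kinase and AKT, a route that drives growth of muscle fibers and supports myoblast proliferation and differentiation. IGF-binding proteins carry the ligands outside the cell, prolong their life and can either withhold them from the receptor or deliver them to it, and several also act without the ligand. IGFBP5 is the binding protein best known from differentiating myoblasts, whereas IGFBP7, which binds IGFs weakly, is known as a secreted matrix protein of fibroblasts and vessel walls.

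In GRCm38.p6 with GENCODE M21 gene models, Igf1 lies on chromosome 10 from 87858265 to 87937042 on the plus strand, and Igf1r on chromosome 7 from 67952827 to 68233668 on the plus strand. Igfbp2 and Igfbp5 are neighbours on chromosome 1 with opposite strands, from 72824503 to 72852474 and from 72857932 to 72874884, and end toward each other. Igfbp3 and Igfbp4 lie on chromosome 11, from 7206086 to 7213923 on the minus strand and from 99041244 to 99054392 on the plus strand. Igfbp6 lies on chromosome 15 from 102144362 to 102149511 on the plus strand, and Igfbp7 on chromosome 5 from 77349240 to 77408041 on the minus strand. Igf1 overlaps the antisense gene Igf1os, and Igfbp7 overlaps Gm34648 and Polr2b on the other strand. The library kit was stranded, but whether strand was used in the counting is not given in the sources used here, so reads of these overlapping stretches could be shared.

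The upstream sequences of Igfbp5 and Igfbp7 are shown because the levels of these 2 genes moved in opposite directions under F/R/C. The sequences are those of RefSeq on GRCm38.p6 and run 5′ to 3′ on the minus strand, with capitals for the E-box letters CANNTG, the core that MyoD and related factors recognise. The printed window of Igfbp5 is chr1:72874885-72875115, from which the 19 bases next to the RefSeq start were left off because they lie in an annotated exon, and the window of Igfbp7 is chr5:77408046-77408295.
Igfbp5: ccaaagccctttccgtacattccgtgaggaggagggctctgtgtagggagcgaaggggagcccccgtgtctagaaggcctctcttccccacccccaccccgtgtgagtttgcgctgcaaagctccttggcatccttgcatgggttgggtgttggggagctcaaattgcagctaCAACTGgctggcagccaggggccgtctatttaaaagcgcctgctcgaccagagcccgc
Igfbp7: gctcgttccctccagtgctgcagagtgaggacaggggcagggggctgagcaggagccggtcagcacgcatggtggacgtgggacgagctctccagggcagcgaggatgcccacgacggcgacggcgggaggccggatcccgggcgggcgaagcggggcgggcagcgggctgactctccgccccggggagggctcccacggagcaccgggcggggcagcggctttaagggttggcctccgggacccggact
In the 250 bases before the RefSeq start, CANNTG (a palindrome, so both strands are read at once) occurred in the window of Igfbp5, with its first base at -77 counted from the RefSeq start (not from the end of the printed letters), and not in the window of Igfbp7. It also occurred before Igf1 (as CAGCTG, at -157), Igfbp2 (CACGTG at -142 from 1 of its 2 RefSeq starts and CATTTG at -55 from the other), Igfbp3 (CAGGTG, at -172), Igfbp4 (CAGATG, at -174) and Igfbp6 (CATATG, at -173), and not before Igf1r. Of 32851 promoter windows of this length, 66.2% held CANNTG and 13.0% held CAGCTG. A letter match in most windows is a description of the sequence and not evidence of binding.

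Total estimated counts per library ran from 15.6 M to 36.3 M (M for mega, SI prefix), with a median of 22.1 M. The deepest libraries were all 3 of bulk iMPCs and, among bulk myoblasts, replicate 2, at 33.2 M to 36.3 M against 15.6 M to 28.2 M in the other 41. For none of the 8 genes did all of the deepest libraries lie above, or all below, every other library. As they hold the whole bulk iMPC group, this cannot tell depth from group. Levels are given as CPM, counts scaled to the library total and by TMM factors, and 3 reads correspond to 0.0832 to 0.192 CPM, for counting error only. Myod1 rose from 3.56 ± 4.58 CPM (SD, n = 3) in MEFs to 2625 ± 837 on day 2 with MyoD alone and 959 ± 344 with F/R/C, where the transgene and the endogenous gene cannot be told apart. Pax7 averaged 306 ± 43.7 CPM in sorted iMPCs and 612 ± 238 in sorted myoblasts, against 0.0155 ± 0.0268 in MEFs. A list of 11 myotube genes summed to 51.9 to 160 CPM in MEFs and 1143 to 32750 in bulk myoblasts, whose 3 libraries differed most from each other. The 6 endothelial markers summed to at most 9.30 CPM in any library and the 6 macrophage markers to at most 23.5. The 6 sorted libraries were quantified with another fragment-length setting than the rest, which cannot be told apart from sorting.

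All 8 genes had reads in every library, and their levels spanned very different ranges. Igfbp5 reached the highest level in CPM, from 115.8 ± 136 in MEFs to 3722 ± 767 on day 2 with F/R/C, and Igf1 had the lowest group mean, 0.451 ± 0.625 in sorted iMPCs, against 57.1 ± 13.1 on day 2 with F/R/C. Igf1r had the narrowest range, with group means 3.18 times apart, from 87.1 ± 16.4 CPM in sorted myoblasts to 277 ± 30.2 on day 2 with F/R/C. When the 15 groups were put in order of their means, only 1 to 4 of the 14 neighbouring steps in each gene were wider than the larger SD of the pair. The lowest group stood apart without overlap for Igfbp2 (MEFs, 2.96 ± 1.59 CPM) and Igfbp6 (sorted iMPCs, 0.484 ± 0.106 CPM), and the highest for Igfbp3 (MyoD alone on day 2, 413 ± 24.0 CPM) and Igfbp6 (MEFs, 34.95 ± 10.6 CPM).

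**Figure D1:**
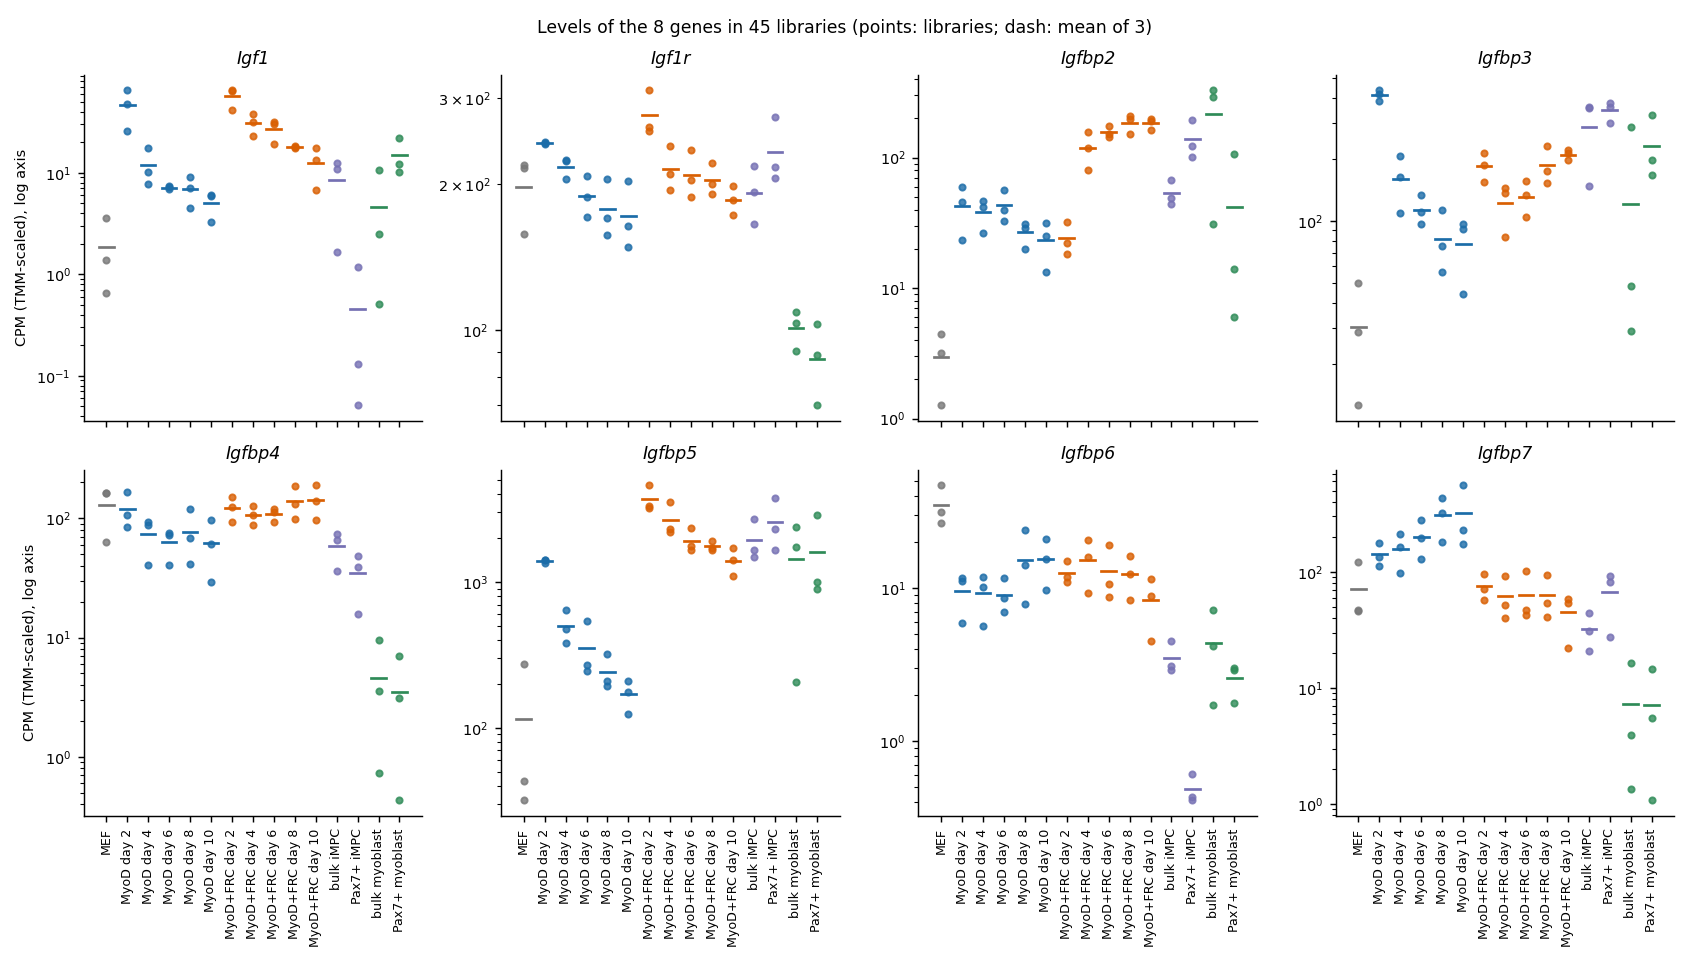
TMM-scaled CPM on a log axis for each of the 8 genes (panels) in each library (points, 3 per group) with the group mean (dash), by group. From day 2 to day 10 the mean of Igfbp5 goes from 3722 to 1404 CPM with F/R/C and from 1397 to 170 CPM with MyoD alone. Igfbp7 reaches 319 CPM on day 10 with MyoD alone, and Igfbp4 and Igfbp7 are lowest in the myoblast groups.

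The first question was what F/R/C added to MyoD at each time. Mean Myod1 was itself lower with F/R/C, at 959 ± 344 against 2625 ± 837 CPM on day 2. On day 10 it was at 792 ± 193 against 1129 ± 777 CPM, with overlap. The part of Myod1 in the differences below was not tested. A gene was called when its adjusted p was under 0.05 and its log2 fold change at least 1 in size; all adjusted p-values are Benjamini-Hochberg values of edgeR's quasi-likelihood test over all genes. On day 2 no member was called (4.93% of all genes were), 2 had an unadjusted p under 0.05, and DESeq2 called 0. On day 4 Igfbp5 alone was called, 1 of 8 (13.2% of all genes), and on day 6 Igf1, Igfbp2 and Igfbp5 were called higher, 3 of 8 (15.4%). On day 8 Igfbp2 and Igfbp5 were called higher and Igfbp7 lower, 3 of 8 (18.7%), and on day 10 Igfbp2, Igfbp3 and Igfbp5 were higher and Igfbp7 lower, 4 of 8 (23.3%). Averaged over the 5 days, Igf1, Igfbp2 and Igfbp5 were higher and Igfbp7 lower, 4 of 8 (22.1%), and the median log2 fold change of the 8 was 0.47 against -0.03 over all genes. The average took the libraries of the 5 days as independent. Same-numbered libraries of a series deviated together between days, with correlations of 0.50, 0.75 and 0.71 between days 8 and 10 of MyoD alone. The SE and adjusted p of every average over the days may therefore be too small. The share of members called was above that of all genes from day 6 on, but it rests on 3 or 4 genes.

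**Figure D2:**
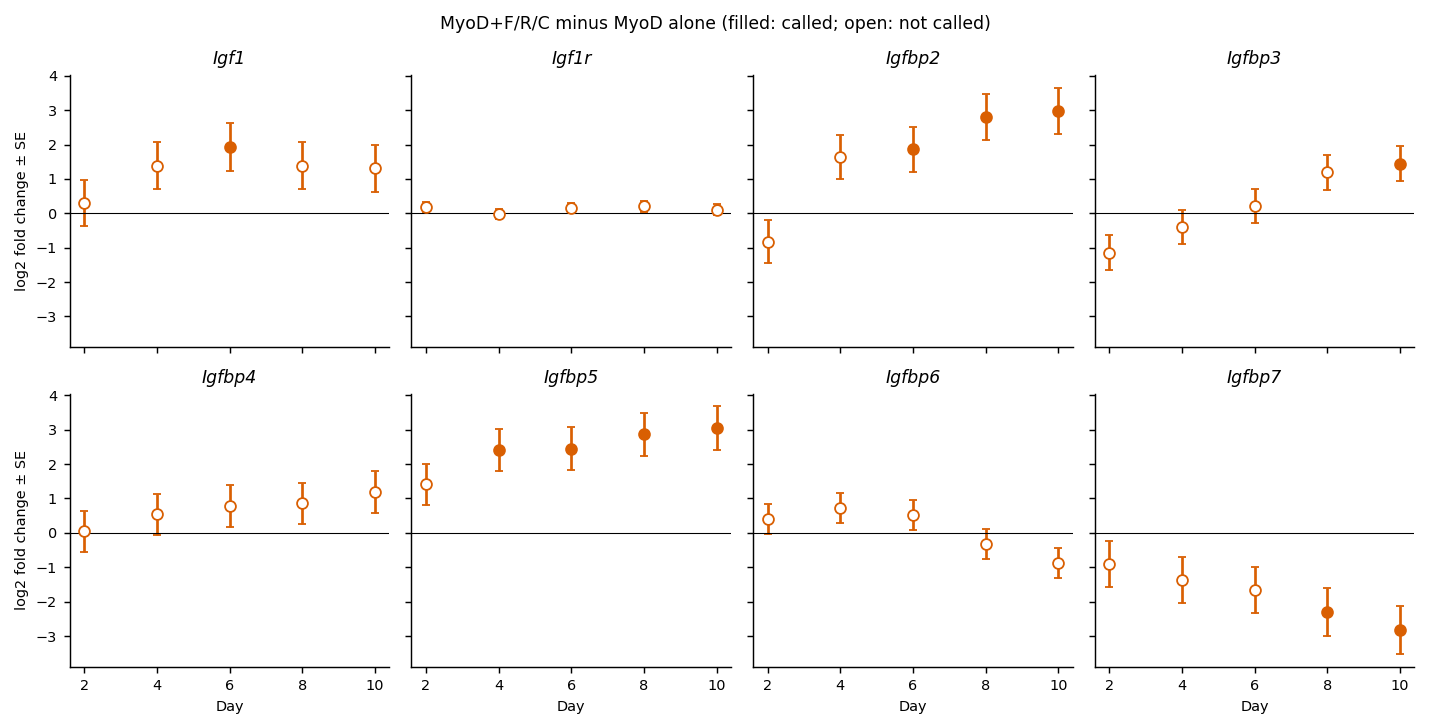
Log2 fold change of MyoD+F/R/C over MyoD alone (vertical axis, bars are SE) against the day of treatment for each of the 8 genes, with filled points where the gene was called. Igfbp5 lies above 0 on all 5 days and Igfbp7 below 0, Igfbp2 and Igfbp3 cross from negative to positive values, and Igf1r stays near 0.

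Igfbp5 had the largest response to F/R/C. Its levels on day 2 were 1410.0, 1425 and 1355 CPM with MyoD alone and 3236, 3324 and 4606 CPM with F/R/C. On day 10 they were 125, 209 and 177 CPM with MyoD alone and 1699, 1103 and 1409 CPM with F/R/C. Every F/R/C library was above every MyoD library at each of the 5 times. The log2 fold change was 1.41 on day 2 (SE 0.60, adjusted p 0.15, not called), 2.41 on day 4 (SE 0.62, adjusted p 0.0044), 2.45 on day 6 (SE 0.62, adjusted p 0.0037), 2.87 on day 8 (SE 0.63, adjusted p 8.4e-04) and 3.04 on day 10 (SE 0.63, adjusted p 3.3e-04). Averaged over the days it was 2.44 (SE 0.28, adjusted p 4.8e-09), a 5.42-fold difference. The growth of the difference from day 2 to day 10, 1.63 on the log2 scale (SE 0.83, adjusted p 0.21), did not pass the test, and became called when only these groups were fitted (adjusted p 0.012).

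Within each series Igfbp5 was lower on day 10 than on day 2. With MyoD alone it fell from 1397 ± 37.2 CPM on day 2 to 170 ± 42.6 on day 10, a drop that was called (log2 fold change -3.04, SE 0.63, adjusted p 0.0016). With F/R/C it went from 3722 ± 767 to 1404 ± 298 CPM, which was not called (-1.41, SE 0.60, adjusted p 0.076) although the 2 sets of libraries did not overlap; the fit of these groups alone called it (adjusted p 0.0072). The MEF libraries were at 272, 43.0 and 32.0 CPM, replicate 1 standing above the others, and that library also had the highest sum of myotube genes among MEFs, 160 CPM against 51.9 and 73.5. Day 10 with MyoD alone overlapped the MEFs (0.56, SE 0.59, adjusted p 0.50) and was called higher without MEF replicate 1 (2.15, adjusted p 0.0076).

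Igfbp2, a carrier abundant in fetal tissues, changed its response over time. On day 2 its levels were 59.4, 45.9 and 23.2 CPM with MyoD alone and 32.0, 22.4 and 18.1 CPM with F/R/C, and the groups overlapped. On day 4 they were 42.1, 46.6 and 26.7 CPM with MyoD alone and 158, 119 and 79.8 CPM with F/R/C. By day 10 they were 25.3, 31.5 and 13.4 CPM with MyoD alone and 163, 197 and 191 CPM with F/R/C, so that from day 4 all F/R/C libraries were above all MyoD libraries. The log2 fold change was 1.63 on day 4 (SE 0.64, adjusted p 0.064, not called), 1.86 on day 6 (SE 0.64, adjusted p 0.031), 2.80 on day 8 (SE 0.67, adjusted p 0.0018) and 2.97 on day 10 (SE 0.67, adjusted p 7.9e-04). The day 6 call was lost without MyoD replicate 1 or 3 or F/R/C replicate 3 (adjusted p up to 0.099). DESeq2 called day 4 as well (adjusted p 0.034).

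The difference of the Igfbp2 responses was itself tested. The effect of F/R/C on day 10 exceeded that on day 2 by 3.80 on the log2 scale (SE 0.92, adjusted p 0.012). Igfbp2 and Igfbp3 were the 2 of 8 members called in this comparison, in which 6.01% of all genes were called. Within the F/R/C series Igfbp2 rose from 24.2 ± 7.10 CPM on day 2 to 183 ± 18.1 on day 10 (2.92, SE 0.67, adjusted p 0.0018), whereas with MyoD alone it went from 42.9 ± 18.3 to 23.4 ± 9.21 CPM with overlap.

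Igfbp3, the main carrier of IGFs in serum and also a product of muscle cells, started on the other side. On day 2 it was at 417, 387 and 434 CPM with MyoD alone and at 216, 155 and 188 CPM with F/R/C, without overlap (-1.15, SE 0.50, adjusted p 0.17, not called; called when only these groups were fitted, adjusted p 0.0034). On day 10 it was at 97.1, 91.2 and 44.2 CPM with MyoD alone and at 198, 214 and 222 CPM with F/R/C (1.45, SE 0.51, adjusted p 0.023). The order of the 2 treatments was thus turned between day 2 and day 10, and the difference of the effects was 2.59 (SE 0.72, adjusted p 0.024). The day 10 call was lost without MyoD replicate 3 (1.28, adjusted p 0.080). The difference of the effects was lost without MyoD day 2 replicate 3, MyoD day 10 replicate 3 or F/R/C day 10 replicate 2, with a log2 difference of 2.41 to 2.90 and an adjusted p of up to 0.059 over the 12 libraries left out in turn.

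Igfbp7 was the member that was lower with F/R/C. On day 2 it was at 177, 113 and 135 CPM with MyoD alone and at 95.9, 57.7 and 71.2 CPM with F/R/C. On day 10 it was at 556, 174 and 228 CPM with MyoD alone and at 58.7, 22.2 and 54.2 CPM with F/R/C. At each of the 5 times all F/R/C libraries were below all MyoD libraries, and within each series replicate 1 was the highest on every day. The log2 fold change was -1.66 on day 6 (SE 0.68, adjusted p 0.066, not called), -2.31 on day 8 (SE 0.69, adjusted p 0.010) and -2.82 on day 10 (SE 0.71, adjusted p 0.0020), and -1.81 on average (SE 0.30, adjusted p 5.1e-06). Without MyoD day 10 replicate 1 the day 10 value was -2.03. With the replicate block, day 6 was called too (-1.69, adjusted p 0.050), as the replicate numbers paired the libraries of that day. The day 8 call was lost without MyoD replicate 1 (-1.92, adjusted p 0.056) or F/R/C replicate 2 or 3 (-2.00 and -2.11, adjusted p 0.070 and 0.054). The difference between the day 10 and the day 2 effect was not called (-1.91, SE 0.94, adjusted p 0.19; -1.13 without that library).

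Fibroblast genes moved with Igfbp7 in their sum. A list of 12 fibroblast markers, all with reads in both groups, summed to 14000 to 30530 CPM on day 10 with MyoD alone and to 1447 to 5470 CPM with F/R/C, without overlap. On average over the days, 3 of the 12 were called lower with F/R/C, 4 higher and 5 neither, where 22.1% of all genes were called. The 5 smooth muscle markers summed to 2597 to 7211 CPM on day 10 with MyoD alone and to 1084 to 1835 CPM with F/R/C. The part of either list in the Igfbp7 result was not tested. A list of 12 proliferation genes moved the other way, with 11 of 12 called higher with F/R/C on average (22.1% of all genes were called in either direction). Its part in the higher levels of Igfbp2 and Igfbp5 with F/R/C than with MyoD alone was not tested.

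Igf1 was induced early and then fell in both series. The MEF libraries were at 3.56, 0.650 and 1.39 CPM. On day 2 the libraries were at 26.0, 47.2 and 65.0 CPM with MyoD alone and at 41.9, 64.4 and 64.9 CPM with F/R/C, all above the MEFs and overlapping each other. On day 6 they were at 7.16, 6.93 and 7.35 CPM with MyoD alone and at 31.4, 30.3 and 19.3 CPM with F/R/C, so all F/R/C libraries were higher. The F/R/C effect was called on day 6 (1.92, SE 0.70, adjusted p 0.039) and on average (1.26, SE 0.31, adjusted p 6.3e-04). It was of similar size but not called on day 4 (1.38, adjusted p 0.14), day 8 (1.38, adjusted p 0.12) and day 10 (1.31, adjusted p 0.13), although the libraries did not overlap on those days; the fit of the groups compared called all 3 (adjusted p 0.017, 0.011 and 0.043). The day 6 call was lost without any MyoD library or without F/R/C replicate 1 or 2 (adjusted p 0.045 to 0.092 over the 6 libraries left out in turn). From day 2 to day 10 Igf1 fell with MyoD alone (-3.18, SE 0.73, adjusted p 0.0040) and with F/R/C (-2.18, SE 0.70, adjusted p 0.019), the latter not called without day 2 replicate 2 (-2.01, adjusted p 0.058) or day 10 replicate 2 (-1.81, adjusted p 0.11).

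Igf1r, the receptor, differed little between the treatments. On day 10 its levels were 202, 148 and 164 CPM with MyoD alone and 198, 172 and 186 CPM with F/R/C, and the groups overlapped on every day but day 2. The average log2 fold change was 0.13 (SE 0.07, adjusted p 0.10), a 1.09-fold difference. It drifted down from day 2 to day 10 in both series, from 243 ± 1.68 to 172 ± 27.9 CPM with MyoD alone (-0.50, SE 0.15, adjusted p 0.026) and from 277 ± 30.2 to 185 ± 12.8 CPM with F/R/C (-0.58, SE 0.15, adjusted p 0.0044). Both passed the adjusted p but not the minimum fold change.

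Igfbp4 and Igfbp6 were not called for F/R/C on any day, though Igfbp4 did not overlap on day 6. Igfbp4, which mostly restrains IGF action until a protease cleaves it, was at 61.04, 29.3 and 96.2 CPM on day 10 with MyoD alone and at 141, 96.1 and 189 CPM with F/R/C, a slight overlap. Its average log2 fold change of 0.68 (SE 0.27) passed the adjusted p (0.027) but not the minimum fold change. Igfbp6, a carrier with a preference for IGF2, was at 15.5, 9.66 and 20.9 CPM on day 10 with MyoD alone and at 8.90, 4.53 and 11.5 CPM with F/R/C, and the groups overlapped on every day.

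The next comparisons set the Dox-treated cells against the MEFs they came from. The 2 day 2 comparisons share the MEF libraries, as do the 2 day 10 comparisons. On day 2 with MyoD alone Igf1, Igfbp2, Igfbp3 and Igfbp5 were called higher and Igfbp6 lower, 5 of 8 (22.4% of all genes), and with F/R/C the calls named these 5 too, 5 of 8 (20.4%). Igf1 was 24.4-fold higher with MyoD alone (4.61, SE 0.79, adjusted p 3.1e-05) and 30.2-fold with F/R/C (4.92, SE 0.80, adjusted p 1.6e-05). MEF replicate 1 held the most Igf1 of the 3 MEF libraries, and without it the log2 fold changes were 5.50 and 5.82. Igfbp5 was 12.1-fold higher (3.59, SE 0.65, adjusted p 6.0e-05) and 32.1-fold with F/R/C (5.01, SE 0.69, adjusted p 1.3e-06). These folds also rest on MEF replicate 1, without which the log2 fold changes were 5.20 and 6.63. Igfbp3 rose from 28.6, 12.7 and 49.6 CPM in MEFs by 13.6-fold with MyoD alone (3.77, SE 0.56, adjusted p 3.1e-06) and 6.16-fold with F/R/C (2.62, SE 0.53, adjusted p 2.6e-04). Igfbp2 rose from 1.27, 3.16 and 4.44 CPM by 14.7-fold (3.88, SE 0.73, adjusted p 9.6e-05) and 8.28-fold (3.05, SE 0.71, adjusted p 0.0012).

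Igfbp6 was the member with its highest level in MEFs. The MEF libraries were at 31.5, 46.9 and 26.5 CPM, against 11.6, 5.91 and 11.1 CPM on day 2 with MyoD alone and 14.97, 10.9 and 11.9 CPM with F/R/C. All MEF libraries were above all of these. The log2 fold change was -1.87 with MyoD alone (SE 0.44, adjusted p 0.0014) and -1.47 with F/R/C (SE 0.44, adjusted p 0.0096), the latter not called without MEF replicate 2 (-1.20, adjusted p 0.056). Igf1r was somewhat higher than in MEFs on day 2 with F/R/C (0.49, SE 0.15, adjusted p 0.011), under the minimum fold change.

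On day 10 the 2 series had moved apart relative to MEFs. With MyoD alone Igfbp2, Igfbp3 and Igfbp7 were called higher and Igfbp6 lower, 4 of 8 (18.9% of all genes). With F/R/C Igf1, Igfbp2, Igfbp3 and Igfbp5 were called higher and Igfbp6 lower, 5 of 8 (34.8%). Igfbp2 was 8.00-fold higher with MyoD alone (3.00, SE 0.71, adjusted p 0.0016) and 62.8-fold with F/R/C (5.97, SE 0.79, adjusted p 2.5e-07). Igfbp7, at 46.7, 45.7 and 121 CPM in MEFs, was 4.49-fold higher with MyoD alone (2.17, SE 0.69, adjusted p 0.017), with every day 10 library above every MEF library. Igf1 was called with F/R/C (2.73, SE 0.74, adjusted p 0.0025) and not with MyoD alone (1.42, SE 0.73, adjusted p 0.14), at 3.73 and 2.31 without MEF replicate 1. Igfbp5 was called with F/R/C (3.60, SE 0.65, adjusted p 2.6e-05), at 5.32 without that library.

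The calls of MyoD alone on day 10 against MEFs were the least steady of this set. Leaving out the libraries in turn gave log2 fold changes of 1.47 to 2.75 for Igfbp7, which was not called without MEF replicate 1 or 2 or day 10 replicate 1 (adjusted p up to 0.13). For Igfbp3 they gave 0.97 to 1.85 around 1.36 (adjusted p 0.043), and the call was lost without MEF replicate 1 or 2 or day 10 replicate 1 or 2. For Igfbp6 they gave -1.49 to -0.93 around -1.18 (adjusted p 0.039), with the call lost without MEF replicate 2 or day 10 replicate 1 or 2. Fitting only the groups compared ended the calls of Igfbp3 (adjusted p 0.12) and Igfbp6 (adjusted p 0.061), as did fitting without the filter on low counts (adjusted p 0.065 and 0.055). The calls of Igfbp2 on day 10 against MEFs held for each library left out.

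Within each series, 3 of 8 members were called lower on day 10 than on day 2 with MyoD alone, Igf1, Igfbp3 and Igfbp5 (6.26% of all genes were called). Igfbp3 fell from 413 ± 24.0 to 77.5 ± 29.0 CPM (-2.41, SE 0.52, adjusted p 0.0023). With F/R/C 2 of 8 were called, Igfbp2 higher and Igf1 lower (16.0% of all genes). Igfbp7 with MyoD alone went from 141 ± 32.5 to 319 ± 207 CPM with overlap and was not called (1.17, SE 0.67, adjusted p 0.27; 0.49 without day 10 replicate 1).

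These opposite courses changed the make-up of the binding protein transcripts. Compared per length in TPM, the length-scaled unit deposited by the authors, the 6 Igfbp genes summed to 448 ± 144 TPM in MEFs, 864 ± 417 on day 10 with MyoD alone and 1176 ± 158 on day 10 with F/R/C. In MEFs Igfbp4 held 36.5% ± 8.28 and Igfbp7 31.7% ± 12.3 of that sum (SD, n = 3). On day 2 the share of Igfbp5 was 31.95% ± 3.45 with MyoD alone and 66.65% ± 5.42 with F/R/C. By day 10 with MyoD alone Igfbp7 held 67.0% and Igfbp5 6.56%. With F/R/C on day 10 Igfbp5 held 32.8%, Igfbp2 30.9% and Igfbp7 7.15%. Igfbp5 held the largest mean share in sorted iMPCs (51.1%), bulk iMPCs (54.7%) and sorted myoblasts (57.7%), while in bulk myoblasts Igfbp2 held 48.7% ± 41.1, with 6.28% in the lowest library and 88.4% in the highest. Shares of one sum depend on each other, so a gene's share can move without its level.

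**Figure D3:**
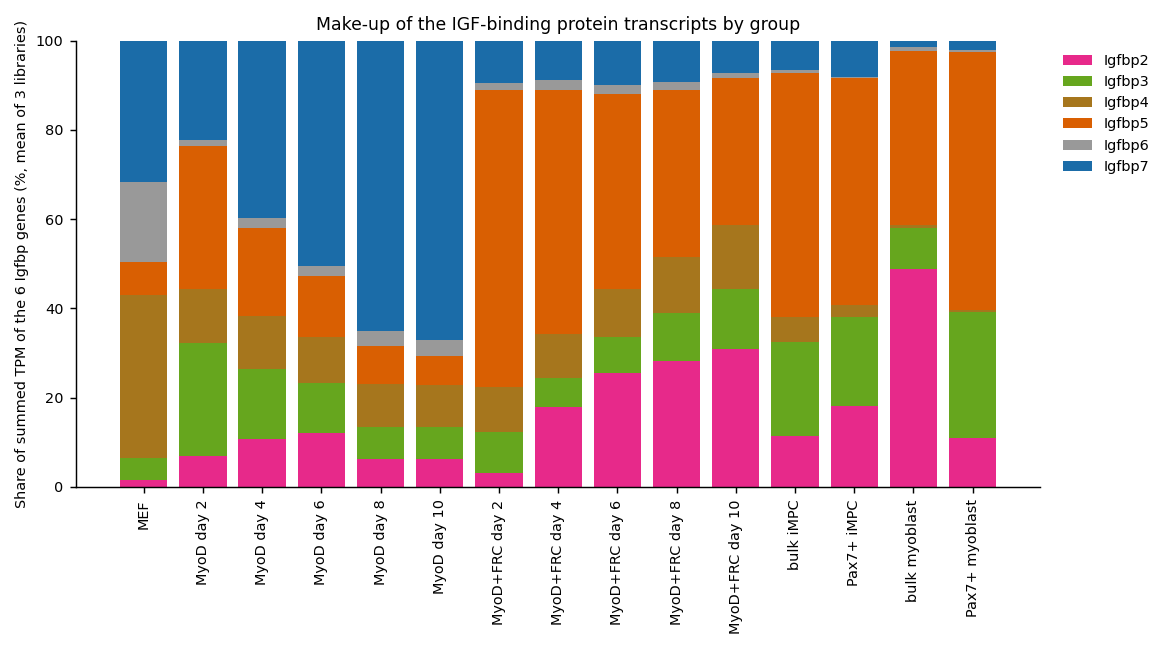
Stacked mean shares (percent, 3 libraries per group) of the summed TPM of the 6 Igfbp genes in each of the 15 groups. With MyoD alone the share of Igfbp7 grows to 67.0% on day 10, while with F/R/C Igfbp5 (32.8%) and Igfbp2 (30.9%) hold most of the sum on that day.

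At the transcript level, shares were taken of each gene's summed TPM and not of its counts. On average 1 annotated transcript held at least 93.3% of the gene's TPM in every group for Igfbp3, Igfbp5, Igfbp6 and Igfbp7. The TPM of Igf1 was divided among several overlapping transcripts, of which Igf1-202 held 23.2% to 45.3% by group, and the division of so few reads is uncertain. Igf1r-201 held 65.9% to 94.1% and Igf1r-206, annotated as a retained intron, 3.63% to 32.05%. Because Igf1r-206 is short, this division weighs on TPM: the sorted iMPCs ranked 3 of 15 groups for Igf1r in CPM and 13 in TPM, at 29.6 TPM against 32.2 TPM in bulk iMPCs. For Igfbp4 in MEFs, Igfbp4-203 (785 bases, annotated as a processed transcript and not as protein coding) held 29.05%, Igfbp4-204 (742 bases) 42.6% and Igfbp4-201 (3831 bases) 24.8%. In sorted iMPCs Igfbp4-204 held at most 1.51e-08%. There Igfbp4-203 held 53.6% and Igfbp4-202, also annotated as a processed transcript, 17.9%. The shares of Igfbp4 in the binding protein sum thus depend on such a division too.

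The reference cells were compared as bulk cultures and as sorted cells. Between bulk iMPCs and bulk myoblasts Igfbp4 and Igfbp7 were called higher in iMPCs and Igfbp2 lower, 3 of 8 (19.6% of all genes). Between sorted iMPCs and sorted myoblasts Igf1r, Igfbp2, Igfbp4 and Igfbp7 were called higher in iMPCs and Igf1 and Igfbp6 lower, 6 of 8 (30.0% of all genes).

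**Figure D4:**
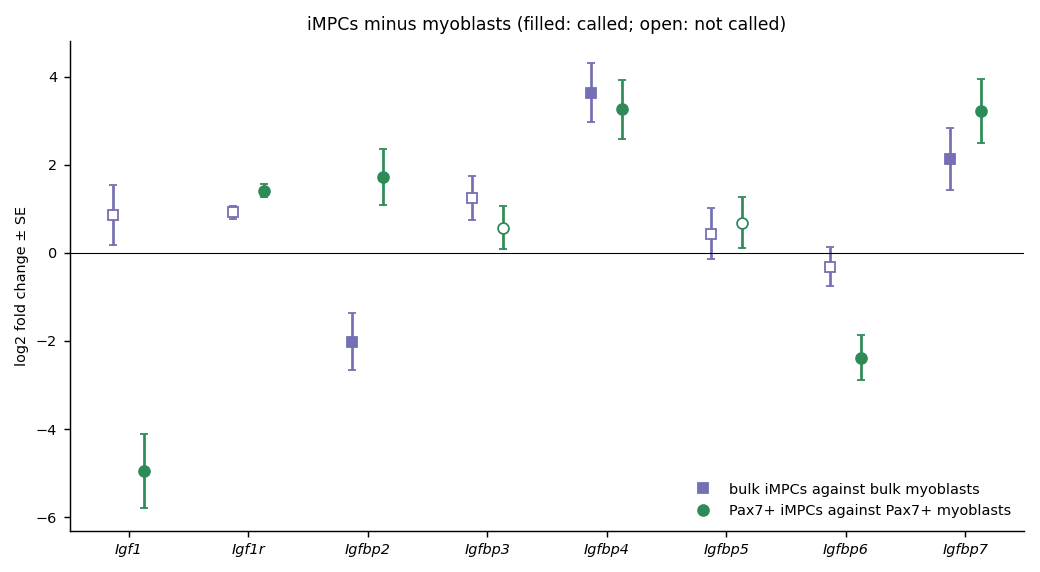
Log2 fold change of iMPCs over myoblasts (vertical axis, bars are SE) for each of the 8 genes, in bulk cultures (squares) and in cells sorted for the Pax7 reporter (circles), with filled points where the gene was called. Igfbp4 and Igfbp7 are higher in iMPCs in both, while Igf1 and Igfbp2 have opposite signs, that of Igf1 in bulk not being called.

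Igfbp4 was low in both myoblast groups, at 3.59, 9.52 and 0.728 CPM in bulk myoblasts and 3.11, 7.02 and 0.435 CPM in sorted ones. It was at 73.5, 36.4 and 65.7 CPM in bulk iMPCs and 15.8, 48.3 and 39.4 CPM in sorted iMPCs, so every iMPC library was above every myoblast library of its kind. The log2 fold change was 3.64 in bulk (SE 0.67, adjusted p 1.1e-04) and 3.26 in sorted cells (SE 0.67, adjusted p 1.6e-04). Igfbp7 was at 5.51, 14.7 and 1.09 CPM in sorted myoblasts and 91.6, 82.3 and 27.7 CPM in sorted iMPCs, again without overlap (3.23, SE 0.73, adjusted p 4.8e-04). In bulk it was at 3.90, 16.5 and 1.35 CPM in myoblasts and 20.9, 31.0 and 44.4 CPM in iMPCs (2.13, SE 0.70, adjusted p 0.018), a call lost without bulk myoblast replicate 1 (1.84, adjusted p 0.085) or 3 (1.64, adjusted p 0.098) or bulk iMPC replicate 3 (1.83, adjusted p 0.070), or when only these groups were fitted (2.11, adjusted p 0.16). In both myoblast groups the library with the highest Igfbp4 also had the highest Igfbp7, which was replicate 2. Without it the log2 fold change was 4.81 in bulk and 4.26 in sorted cells for Igfbp4, and 3.66 and 4.34 for Igfbp7. The fibroblast list summed to 521 to 3303 CPM in sorted myoblasts and 1435 to 2934 CPM in sorted iMPCs, with overlap. Of this list Pdgfra, Twist2, Lum and Dcn averaged under 1 CPM in sorted myoblasts. In bulk myoblasts Col1a1 and Pdgfrb did so as well, and in sorted iMPCs Twist2 and Lum did. Lum had 0 reads in both myoblast groups. The part of the fibroblast list in these results was not tested.

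Igf1r was 2.67-fold higher in sorted iMPCs, at 275, 206 and 217 CPM, than in sorted myoblasts, at 70.0, 88.5 and 103 CPM. The groups did not overlap, and the call (1.42, SE 0.15, adjusted p 9.7e-09) held for each library left out. In bulk it was at 192, 165 and 217 CPM in iMPCs and 103, 109 and 90.3 CPM in myoblasts, also without overlap, and the log2 fold change of 0.92 (SE 0.15, adjusted p 2.3e-05) was just under the minimum, which it passed without bulk myoblast replicate 2 (1.007) or bulk iMPC replicate 2 (1.03).

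Igf1 was nearly absent from sorted iMPCs. Their libraries were at 0.130, 1.17 and 0.0517 CPM, the lowest of them 1 read, while sorted myoblasts were at 12.2, 10.2 and 22.0 CPM and bulk iMPCs at 12.6, 1.66 and 10.9 CPM. Sorted iMPCs were below both groups without overlap, by a log2 fold change of -4.95 against sorted myoblasts (SE 0.85, adjusted p 1.7e-05) and -4.14 against bulk iMPCs (SE 0.83, adjusted p 1.4e-04). Without sorted iMPC replicate 2, the library with the most Igf1 of its group, these were -7.18 and -6.35, values that rest on a few reads. Igfbp6 had a like pattern, at 0.433, 0.606 and 0.413 CPM in sorted iMPCs, 1.77, 3.00 and 2.94 CPM in sorted myoblasts and 2.93, 4.54 and 3.09 CPM in bulk iMPCs. Its log2 fold change was -2.38 against sorted myoblasts (SE 0.51, adjusted p 3.0e-04) and -2.84 against bulk iMPCs (SE 0.51, adjusted p 3.7e-05). Igf1 and Igfbp6 were the 2 of 8 members called between sorted and bulk iMPCs, where 30.3% of all genes were called. Between bulk iMPCs and bulk myoblasts Igf1 had the other sign, with overlap, and was not called (0.86). It was called higher in bulk iMPCs without bulk myoblast replicate 2 (2.52, adjusted p 0.0099). The myotube list summed to 1377 to 1898 CPM in sorted iMPCs, 4357 to 15270 in sorted myoblasts and 21910 to 28360 in bulk iMPCs, and its part in these differences was not tested.

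Igfbp2 did not give one answer for the reference cells. Bulk myoblasts were at 290.5, 31.0 and 329 CPM and bulk iMPCs at 44.3, 49.0 and 67.0 CPM, with overlap through replicate 2 of the myoblasts. Sorted myoblasts were at 6.00, 106 and 14.0 CPM and sorted iMPCs at 101, 122 and 195 CPM, with overlap through replicate 2 as well. Igfbp2 was called lower in iMPCs in bulk (-2.02, SE 0.65, adjusted p 0.016) and higher in iMPCs after sorting (1.73, SE 0.64, adjusted p 0.027). The bulk call was lost without bulk myoblast replicate 1 or 3 or bulk iMPC replicate 1 or 2 (adjusted p 0.054 to 0.087), and the sorted call without sorted myoblast replicate 1 (1.21, adjusted p 0.12) or 3 (1.31, adjusted p 0.13) or sorted iMPC replicate 3 (1.44, adjusted p 0.096). Both calls were also lost when only the groups compared were fitted (-2.07, adjusted p 0.14 in bulk, and 1.73, adjusted p 0.22 after sorting). Without sorted myoblast replicate 2 the sorted difference was 3.86. Between sorted and bulk myoblasts Igfbp2 was the 1 of 8 members called (6.23% of all genes), lower in sorted cells (-2.36, SE 0.66, adjusted p 0.017), a call that was lost without bulk myoblast replicate 1 or 3 or sorted myoblast replicate 1 or 3 (adjusted p 0.055 to 0.080), or when only these groups were fitted (-2.37, adjusted p 0.56). Without sorted myoblast replicate 2 it was -4.42. Replicate 2 of the bulk myoblasts also had the highest Igfbp3 of its group, at 286 CPM against 48.2 and 29.2, so that the bulk comparison of Igfbp3 (1.25, SE 0.50, adjusted p 0.055, not called) was called without it (2.92, adjusted p 1.2e-05). The myotube list summed to 32750, 18270 and 1143 CPM in bulk myoblast replicates 1, 2 and 3, and its part in these differences was not tested.

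Whether sorting changed a gene differently in iMPCs and in myoblasts was tested as an interaction, in which 3 of 8 members were called (24.1% of all genes). The sorted to bulk difference was higher in iMPCs by 3.75 on the log2 scale for Igfbp2 (SE 0.91, adjusted p 0.0021), and by 5.86 without sorted myoblast replicate 2. It was lower in iMPCs for Igf1 (-5.82, SE 1.08, adjusted p 1.6e-04) and Igfbp6 (-2.07, SE 0.67, adjusted p 0.017), the latter lost without bulk myoblast replicate 3 (-1.68, adjusted p 0.060). The Igf1 value was -8.05 without sorted iMPC replicate 2 and -7.43 without bulk myoblast replicate 2. Fitting only the groups compared ended the calls of Igfbp2 (3.78, adjusted p 0.092) and Igfbp6 (-2.06, adjusted p 0.079). Against bulk iMPCs alone, sorted iMPCs held more Igfbp2 without overlap (1.38, SE 0.63, adjusted p 0.070, not called; called by DESeq2, adjusted p 0.043, and when only these groups were fitted, adjusted p 0.010).

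Bulk iMPCs were also compared with day 10 of F/R/C, and 2 of the 8 genes were called. Igfbp2, at 163, 197 and 191 CPM on day 10, was lower in bulk iMPCs without overlap (-1.78, SE 0.64, adjusted p 0.046), and Igfbp6 was lower with overlap (-1.24, SE 0.44, adjusted p 0.043), 2 of 8 (9.57% of all genes). Leaving out any of the 6 libraries ended the Igfbp2 call (log2 fold change -2.00 to -1.67, adjusted p 0.065 to 0.13), and leaving out day 10 replicate 1 or 3 or bulk iMPC replicate 1 or 3 ended the Igfbp6 call (-1.54 to -0.999 over the 6). Both calls were lost without the filter on low counts (adjusted p 0.064 and 0.066), and that of Igfbp6 when only these groups were fitted (-1.28, adjusted p 0.076). Igfbp4, at 141, 96.1 and 189 CPM on day 10 and 73.5, 36.4 and 65.7 CPM in bulk iMPCs, was 2.42-fold lower in bulk iMPCs without overlap (-1.28, SE 0.60, adjusted p 0.13). It was not called, but was when only these groups were fitted (-1.33, adjusted p 0.041). The other 5 genes were not called and overlapped.

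Among the other ligands and receptors, Igf2 was far more abundant than Igf1 per length, at 5268 TPM against 8.18 TPM on day 10 with F/R/C. Igf2 libraries averaged 225 ± 150 CPM in MEFs, 4663 ± 1020 on day 2 with MyoD alone and 10670 ± 2269 with F/R/C. It rose from MEFs by 4.38 (SE 0.64, adjusted p 3.0e-06) and 5.57 (SE 0.68, adjusted p 1.7e-07), and every F/R/C library exceeded every MyoD library on each day, with an average log2 fold change of 1.26 (SE 0.25, adjusted p 7.1e-05). On no single day was the F/R/C effect on Igf2 called (adjusted p 0.061 to 0.21). Igf2r, the receptor that clears IGF2, ran from 467 ± 265 CPM in bulk myoblasts to 1402 ± 295 on day 4 with MyoD alone and was not called for F/R/C. Insr, the insulin receptor, ran from 46.9 ± 3.08 to 96.05 ± 21.7 CPM, and its average F/R/C effect of -0.40 (SE 0.11, adjusted p 0.0021) was under the minimum fold change. Lrp1, which takes up IGFBP3 among many ligands, was lower with F/R/C (-1.93, SE 0.23, adjusted p 1e-08).

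Of 74 further pathway genes in 6 lists, 66 were tested, and 28.8% of these were called for the average F/R/C effect, 6 higher and 13 lower, against 22.1% of all genes. Among adaptors and PI3 kinase 1 of 16 was higher, the insulin and IGF receptor substrate Irs1 (2.14, SE 0.11, adjusted p 2.7e-16), and 2 were lower, the catalytic subunit gene Pik3cb (-2.18, adjusted p 5.7e-11) and the PI3 kinase inhibitor Pik3ip1 (-1.98, adjusted p 5.3e-07). Irs1 went from 57.1 to 186 CPM on day 2 and from 54.8 to 226 CPM on day 10, as group means without and with F/R/C. Of 17 AKT and mTOR genes none was higher and 2 were lower, among them the mTOR inhibitor Deptor (-1.91, adjusted p 2.4e-10).

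Among 8 tested proteases of binding proteins and their inhibitors, Stc1, an inhibitor of pappalysins, was higher with F/R/C (2.60, adjusted p 7.3e-07), and Pappa, the pappalysin that cleaves IGFBP4 and IGFBP5, was lower (-1.57, adjusted p 0.0046), at 30.4 CPM on day 10 with MyoD alone against 4.51 CPM with F/R/C. Of 8 tested IGFBP-related carriers 1 was higher, Ccn3 (2.88, adjusted p 2.6e-07), and 4 were lower, among them Ccn2 (-3.16, adjusted p 6.4e-08) and Ccn4 (-2.80, adjusted p 4.6e-15). Ccn2 and Ccn4 are matrix-associated proteins of fibroblasts. The fibroblast sum was also lower with F/R/C, although the single markers of that list were called in both directions. The part of the list in the change of Ccn2 and Ccn4 was not tested. Of 12 FOXO and atrophy genes 2 were higher and 3 lower, with Bnip3 (1.16, adjusted p 4.5e-05) and Foxo6 (-1.73, adjusted p 4.1e-05) among them.

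From MEFs to day 2, 16 of the 66 were called higher and 4 lower with MyoD alone (30.3%, against 22.4% of all genes), and 12 higher and 9 lower with F/R/C (31.8%, against 20.4%). The matrix protease Htra3 (5.47 and 4.63), the stanniocalcin Stc2 (3.77 and 2.63) and Deptor (4.28 and 1.30) were called higher in both, with log2 fold changes for MyoD alone and F/R/C in that order and adjusted p-values of at most 0.015. Without MEF replicate 1 they were 6.38 and 5.55 for Htra3 and 4.44 and 3.32 for Stc2, and without MEF replicate 2 those of Htra3 were 4.85 and 4.03. The call of Deptor with F/R/C was lost without MEF replicate 1 (1.05) or day 2 replicate 2 (1.13). Between sorted iMPCs and sorted myoblasts 5 of the 66 were higher and 15 lower (30.3%), a share near that of all genes (30.0%). Pik3cb (-6.17, adjusted p 7.1e-10) and Deptor (-4.61, adjusted p 4.5e-09) were lower in iMPCs, as were the ubiquitin ligases of muscle atrophy Fbxo32 (-3.38, adjusted p 2.8e-06) and Trim63 (-2.69, adjusted p 0.0012), while the imprinted receptor adaptor Grb10 (3.74, adjusted p 0.0014) and Adam12, a metalloprotease that cleaves binding proteins (3.80, adjusted p 4.2e-05), were higher. Grb10 averaged 1389 ± 306 CPM in sorted iMPCs and 104 ± 165 CPM in sorted myoblasts, and was also higher in bulk iMPCs than bulk myoblasts (5.51, adjusted p 1.2e-04). Myoblast replicate 2 lowered these differences: without it Grb10 was at 7.33 in sorted and 7.68 in bulk cells, and Adam12 at 5.27 in sorted cells. Both Grb10 calls were lost when only the groups compared were fitted (3.74 in sorted and 5.47 in bulk cells). Pik3cb was at -7.09 without sorted iMPC replicate 1 and Deptor at -5.41 without sorted iMPC replicate 2.

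Over the 15 group means of log2 CPM, the members did not move as one block. The highest Pearson correlation between 2 members was 0.887 for Igf1r and Igfbp4 and the lowest -0.611 for Igfbp3 and Igfbp6, as descriptions over 15 groups that share time courses. Among 13873 genes compared, those most like each member were, by the highest of the correlations, Adamts5 for Igf1 (0.922), Map7d3 for Igf1r (0.945), Sema6c for Igfbp2 (0.931), Dll1 and Sept10 for Igfbp3 (0.910 each), Epha3 and Igf2bp1 for Igfbp4 (0.975 each), Mrpl3 for Igfbp5 (0.952), Thbs2 for Igfbp6 (0.962) and Col5a1 for Igfbp7 (0.965).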

How the data were processed

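Poly-A RNA of 45 libraries was sequenced as stranded single-end 100 bp reads, per the labels' protocols. The submitters' processing notes name bcl2fastq 2.19, Trimmomatic 0.36, kallisto 0.44, edgeR 3.28 and the build GRCm38.p6. The deposited files give an expected count and a TPM for each of 121843 transcripts per library, estimated by the authors with kallisto. Counts of the 121104 transcripts found in GENCODE M21 were summed by gene (99.4% to 99.8% of reads) and rounded. edgeR 4.0.16 (R 4.3.3; quasi-likelihood test, TMM, filterByExpr, all 45 libraries, no block, 30 residual degrees of freedom) gave all tests; a gene was called at an adjusted p under 0.05 with a log2 fold change of 1 or more in size. The procedure was also run on simulated counts. As their libraries were drawn independently, that run cannot tell how the tests behave where same-numbered libraries deviate together. Alternatives were DESeq2 1.42.0, RLE factors, no filter, only the groups compared, the replicate block, no minimum fold change, and each library left out. Same-numbered libraries deviated together (lowest correlation 0.346, 0.241 and 0.223) on days 2, 4 and 6 of F/R/C against MyoD alone, and between day 10 and day 2 of MyoD alone (0.201). Between neighbouring days of a series the lowest correlation ran from 0.375 (F/R/C, days 4 and 6) to 0.5565 (F/R/C, days 8 and 10). Between days 2 and 10 of F/R/C it was 0.0312. The averages over the days take no account of this. Named were all 8 members, Igf2, Igf2r, Insr, at most 3 called genes per pathway list and comparison with the largest fold change, and for likeness the top of the 3 most correlated genes. Members and lists were chosen with earlier results of these data known. Intervals of depth cover counting error only.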

Additional observations from a re-analysis of the deposited data

Results flagged for a closer look

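The effect of F/R/C differed between day 10 and day 2 for 2 members, by the test of that difference: 3.80 on the log2 scale for Igfbp2 and 2.59 for Igfbp3. The difference between sorted and bulk cells was not the same in iMPCs and myoblasts for 4 genes by the interaction test. It was -5.82 for Igf1, 3.75 for Igfbp2, -2.07 for Igfbp6 and -1.15 for Insr (SE 0.34, adjusted p 0.010 in edgeR's test), the insulin receptor, each as iMPCs minus myoblasts on the log2 scale. Fitting only the groups compared ended the calls of Igfbp2 (adjusted p 0.092) and Igfbp6 (adjusted p 0.079), and that of Insr (-1.13). The Insr call was also lost without sorted myoblast replicate 2 (-0.83) or bulk iMPC replicate 3 (-0.97).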

How the results depend on the processing

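The 58 called member results had 822 alternative values, of which 756 kept direction and call, 66 lost the call and 0 changed sign. The 94 uncalled results had 1290 alternative values, of which 34, from 24 results, were called and 52 changed sign. Fitting only the groups compared moved the members called to 2 on day 2, 4 on day 4 and 5 on day 8 of F/R/C, 2 for MyoD alone on day 10 against MEFs, 1 for bulk iMPCs against bulk myoblasts, 0 for sorted against bulk myoblasts and 1 for the interaction. DESeq2 called 2 on day 4. Without the filter, 2 were called for MyoD alone on day 10 against MEFs and 0 for bulk iMPCs against day 10 of F/R/C. Leaving out single libraries gave 1 to 3 members on day 6, 1 to 2 for day 10 minus day 2, 1 to 4 for MyoD alone on day 10 against MEFs, 1 to 2 for F/R/C day 10 against day 2, 0 to 1 for bulk iMPCs against day 10 of F/R/C, 1 to 6 for bulk iMPCs against bulk myoblasts (6 without bulk myoblast replicate 2) and 0 to 3 for sorted against bulk myoblasts (3 without that library). The cause was not tested.

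With the replicate block, 4 members were called on day 6 through Igfbp7, and the block changed no other member call where the numbers paired the libraries. Over all genes, fitting only the groups compared moved the calls from 854 to 1420 on day 2 of F/R/C, from 3279 to 2019 for MyoD alone on day 10 against MEFs, from 3396 to 1265 for bulk iMPCs against bulk myoblasts, from 5199 to 3424 for the sorted cells, from 1080 to 0 for sorted against bulk myoblasts and from 4172 to 1679 for the interaction. Without the filter, day 10 minus day 2 went from 1041 to 649 calls and from 37.3% to 55.3% higher. Dropping the minimum fold change raised most counts by over 1.5 times. The median of all genes between sorted and bulk iMPCs was -0.13. Genes near 3 reads, such as Igf1 in sorted iMPCs, are limited by depth.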
